A study of Canis lupus familiaris with 51 samples.

Results

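Canine cutaneous mast cell tumors (MCTs) were compared here within a single histological class, the differentiated reference MCTs, by whether the pathologists had counted mitoses in them. The study's reference list gave a mitotic index to each of 13 differentiated MCTs: it was 1 or more in 3 of them (1 in tumor T84, 3 in T130 and 5 in T131) and 0 in the other 10 (T48, T50, T55, T62, T64, T88, T92, T100, T101 and T112). These 13 were members of a series of 51 tumors, each hybridized to 1 single-color array. The comparison asked whether tumors with counted mitoses held more transcripts of cell proliferation, and which other transcripts went with the mitoses.

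All 13 were spontaneous tumors of pet dogs, of low grade in the Kiupel scheme, sampled from the center of the mass at surgery, and no group received an experimental treatment. The tumors with mitoses came from a 3-year-old female Boxer (T84), a 6-year-old male Boxer (T130) and a 13-year-old male Crossbred dog (T131), and all 3 were of Patnaik grade 2. The 10 without mitoses came from 7 females and 3 males aged 4 to 10 years, 2 of them Boxers, of which 4 were of Patnaik grade 2 (T48, T55, T64 and T100) and 6 of grade 1. As a comparison at the other end of the scale there were 4 undifferentiated reference MCTs of high Kiupel grade and Patnaik grade 2 or 3 (T9, T57, T73 and T90, with mitotic indices of 10, 8, 15 and 45), from 2 males and 2 females aged 9 to 13 years. Sex, breed, age and Patnaik grade therefore differed between the groups, which were small. Each tumor was 1 dog, so the spread within a group is that between dogs.

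A mitotic figure is a cell caught in M phase, with condensed chromosomes on a spindle. The transcripts of the mitotic machinery (cyclin B and its kinase, Aurora and Polo kinases, kinetochore and spindle proteins) build up in G2 and M phase, whereas those of DNA synthesis (the MCM helicase, polymerases, nucleotide-supplying enzymes) build up from late G1 through S phase. In the grading of canine MCTs the count of mitoses is one of the features that pathologists weigh.

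Between 66.6% and 72.6% of the spots were well above background on each of the 13 arrays, and a single probe was saturated on any of them. The median correlation of an array with the other 12 ran from 0.955 (T130) to 0.977 (T92). The tissue carried its label: the mast cell genes KIT, the stem cell factor receptor, FCER1A and MS4A2, subunits of the IgE receptor, CMA1 (chymase) and the canine tryptase (the probe named for LOC100049001) were all well above background in all 13 tumors. Levels in this text are log2 values of the quantile-normalized signal, and a difference is the mean of the tumors with mitoses minus the mean of those without, ± its standard error in the limma fit (n = 3 and 10). The call of a probe required a fold of 2 or more together with a limma adjusted p below 0.01.

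None of the 43603 probes was called, in either direction (0% higher and 0% lower), and the smallest adjusted p over the table was 0.137 (limma, Benjamini-Hochberg). No probe reached an adjusted p of 0.05 either. With scan session or with slide as a block some probes were called, but in both T84 alone carries the difference, and with slide it is set against T88 alone. At an unadjusted p under 0.05 there were 2477 probes (5.68% of those tested) higher and 1298 (2.98%) lower with mitoses. That split moved with the scaling: when each array was scaled to its 75th percentile, 1618 were higher and 1898 lower. In 275 probes (0.631%) every tumor with mitoses lay above every tumor without, and in 146 (0.335%) every one lay below. These shares are the background for the counts of each gene list below. No gene described below passed the test in the comparison with and without mitoses, so its difference is given as a value and not as a change.

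Genes of M phase stood higher on average in the 3 tumors with mitoses. Of 62 M phase genes measured, 53 were higher and 9 lower with mitoses, and the median difference was 0.66 on the log2 scale, against 0.01 over all probes. None of the 62 was called. At an unadjusted p under 0.05, 20 were higher and 0 lower, beside 5.68% and 2.98% of all probes. The count of 20 was 7 in each of 3 other fits, with log2(mitotic index + 1) as a number, with Boxer as a covariate and with slide as a block. The groups overlapped in nearly all of them: only BUB3, a protein of the spindle checkpoint, and BIRC5 (survivin), a subunit of the chromosomal passenger complex, had all 3 tumors with mitoses above all 10 without. These 2 were singled out after their values were seen. BUB3 was higher by 0.51 ± 0.11 and BIRC5 by 0.96 ± 0.23 (adjusted p = 0.405 for each, limma).

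The level of the M phase list did not follow the order of the counted mitoses within the group. As the mean of each gene's deviation from its average over the 51 arrays, it was 0.41 in T84, which had the lowest count (index 1), and -0.28 in T130 and -0.27 in T131, with indices of 3 and 5. T84 was the highest of the 3 in 48 of the 62 genes, and it lay above all 10 tumors without mitoses in 39 of them, T130 in 7 and T131 in 5. Over all probes T84 did so in 7.99%, T130 in 22.7% and T131 in 7.4%, so the count of T84 was far above this background, that of T131 near it and that of T130 under it. The 10 tumors without mitoses ranged from -1.34 (T100) to 0.02 (T101), with a median of -0.66. T101, of index 0, thus lay above T130 and T131, and T112 (-0.29) and T88 (-0.35) lay just under them. Among all 51 arrays, T84 ranked 14, T131 ranked 29 and T130 ranked 30 from the top.

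**Figure D1:**
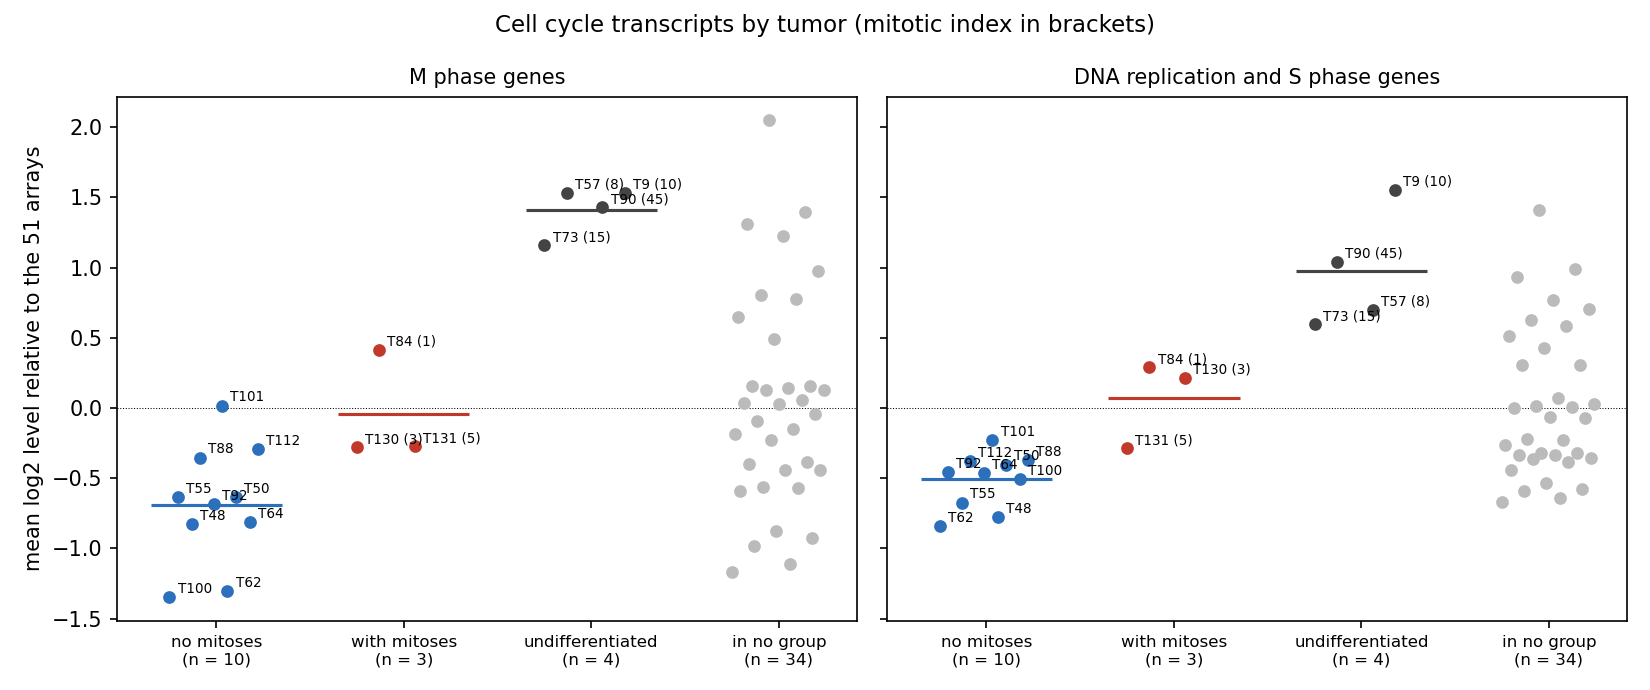
Mean log2 level of the M phase genes (left) and of the DNA replication and S phase genes (right) in each tumor, relative to the average of the 51 arrays. Points are tumors, horizontal bars are group means, and numbers in brackets are mitotic indices (0 in all tumors of the first group). T84, with an index of 1, is the highest of the 3 tumors with mitoses on the left, and all 4 undifferentiated tumors lie above all 13 differentiated ones in both panels.

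The single genes of M phase repeated this picture. CCNB2 (cyclin B2, a partner of the mitotic kinase) was 10.09 in T84, 8.71 in T130 and 8.83 in T131, against a lowest, median and highest level of 6.18, 8.04 and 9.45 without mitoses. The 2 tumors with more mitoses thus sat inside the range of those without, and the difference of 1.19 ± 0.58 had an adjusted p of 0.589. Its 2 other probes gave 1.41 and 1.67. CDK1, the mitotic kinase itself, was 9.63, 7.98 and 8.01 in T84, T130 and T131 and ran from 5.93 to 8.74 (median 7.67) without mitoses, a difference of 1.04 ± 0.52 (adjusted p = 0.596). TOP2A, the topoisomerase that untangles sister chromatids, was 5.83, 4.74 and 4.79, against 1.86 to 5.64 (median 4.14), where 4 of the 10 tumors were not well above background.

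CCNA2 (cyclin A2, active in S and G2 phase) was 8.35, 7.33 and 7.45 in T84, T130 and T131 and between 5.01 and 7.61 without mitoses, higher by 1.30 ± 0.52 (adjusted p = 0.525). AURKA, the kinase of the spindle poles, overlapped little between the groups. It was 8.61, 8.01 and 8.24, against 7.20 to 8.37 with a median of 7.57, and only T88 of the tumors without mitoses reached into the range of those with mitoses. Its difference was 0.63 ± 0.21 (adjusted p = 0.460), and a second, dimmer probe gave 0.55. CDC20, the activator of the anaphase-promoting complex, differed by 0.95 ± 0.44 (8.21, 7.29 and 7.20 against 5.51 to 7.60). FOXM1, a transcription factor of G2 and M phase genes, differed by 0.79 ± 0.49, and MYBL2, another such factor, by 1.22 ± 0.60. The kinases PLK1 (0.37 ± 0.25), BUB1 (0.35 ± 0.27) and AURKB (0.26 ± 0.28) differed by little more than their standard errors or less. AURKB, which marks the centromeres in mitosis, was 10.54, 10.74 and 10.21 against 9.60 to 11.08. MKI67 and CCNB1 are not analysed here, since no probe was found under those names.

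**Figure D2:**
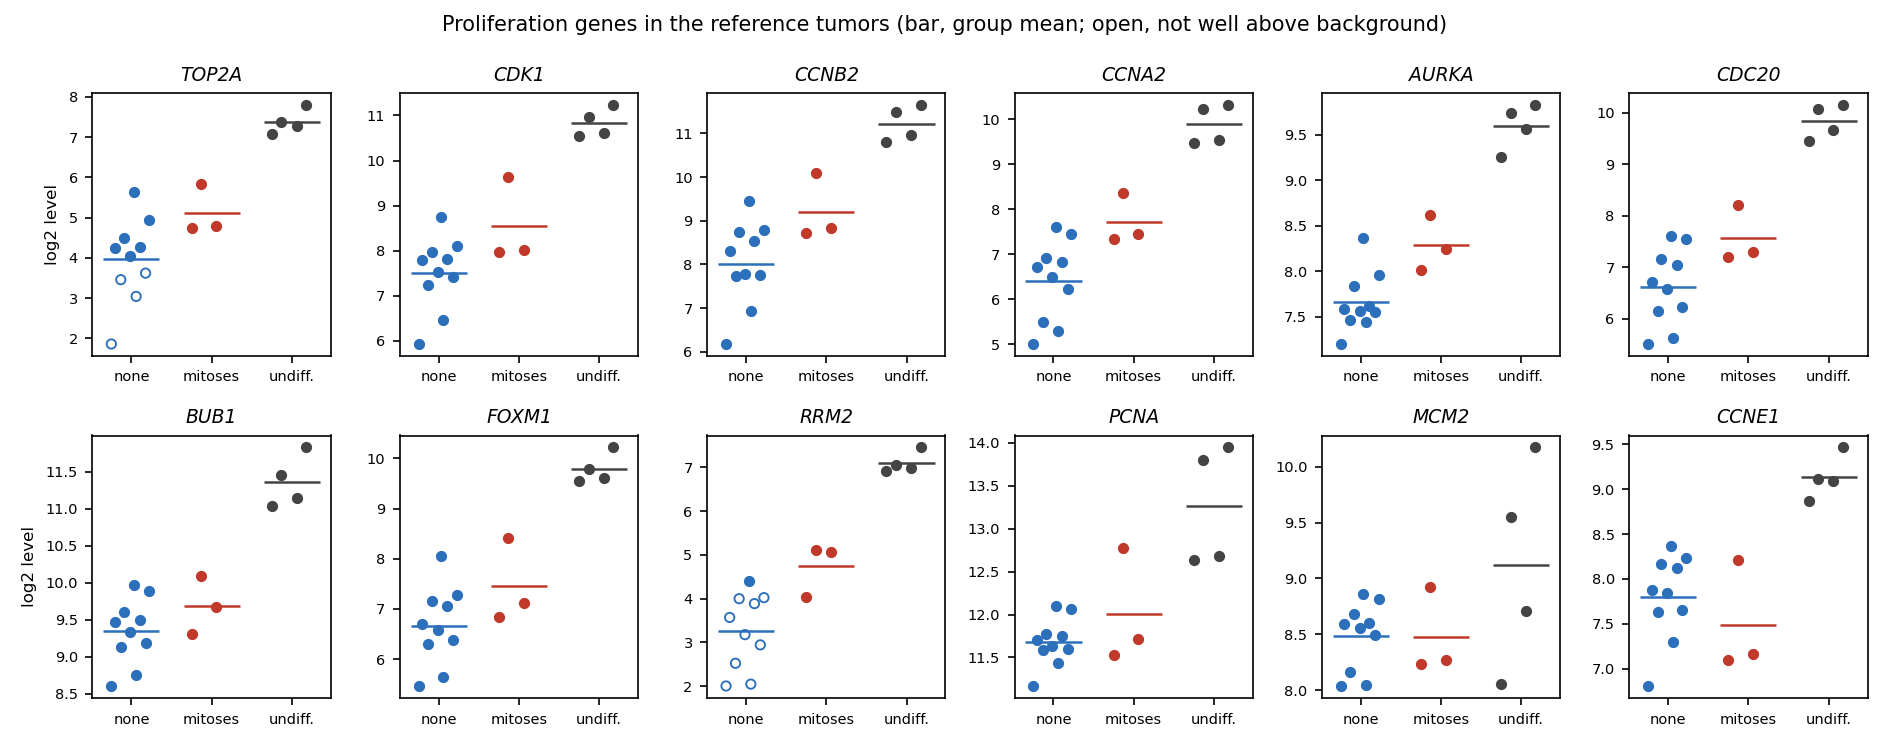
Log2 level of 12 proliferation genes in the 10 differentiated tumors without mitoses, the 3 with mitoses and the 4 undifferentiated tumors. Points are tumors, bars are group means, and open points are not well above background. In TOP2A, CDK1, CCNB2, CCNA2 and FOXM1 a single tumor with mitoses, T84, stands above the other 2, which lie within the range of the tumors without mitoses.

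Genes of DNA replication and S phase also stood higher on average with mitoses, in T84 and T130 more than in T131. Of 42 measured, 40 were higher and 2 lower with mitoses, with a median difference of 0.52, and 20 were higher at an unadjusted p under 0.05. That count was 8 with log2(mitotic index + 1) as a number and 6 with slide as a block. None was called. The level of the list was 0.29 in T84, 0.21 in T130 and -0.29 in T131, against -0.84 to -0.23 (median -0.46) in the tumors without mitoses. T84 and T130 thus lay above all 10, while T131, which had the most mitoses, lay below 1 of them, T101 (-0.23). T84 was the highest of the 3 in 20 genes, T130 in 18 and T131 in 4. T84 lay above all 10 tumors without mitoses in 27 of the 42, T130 in 26 and T131 in 4. Over all probes they did so in 7.99%, 22.7% and 7.4%, so the count of T131 was near this background.

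MCM3, MCM4 (helicase subunits) and POLA2 (a subunit of the primase complex) had no overlap between the groups, and were singled out for that after their values were seen. MCM3 was higher by 1.0003 ± 0.25 (adjusted p = 0.405), MCM4 by 0.52 ± 0.13 (adjusted p = 0.408) and POLA2 by 0.66 ± 0.19 (adjusted p = 0.415). RRM2, the small subunit of ribonucleotide reductase, was 5.12 in T84, 5.07 in T130 and 4.04 in T131. It was well above background in those 3 but in only 1 of the 10 tumors without mitoses, where it ran from 2.003 to 4.40. Its difference was 1.49 ± 0.51 (adjusted p = 0.474). With the normexp correction it was 0.20. TYMS (thymidylate synthase) differed by 0.37 ± 0.23 and PCNA, the sliding clamp, by 0.32 ± 0.24, and in both T84 alone lay above the range of the tumors without mitoses (TYMS 12.24 against at most 11.69, PCNA 12.78 against at most 12.09). MCM2, another helicase subunit, was an exception, at 8.24, 8.93 and 8.27 against 8.04 to 8.86, with a difference of -0.01 ± 0.21 whose sign turned under several settings.

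CDC6, which loads the helicase, had the second lowest p of all named genes, but by a probe that was not well above background in any of the 13 tumors (3.30, 3.66 and 3.02 against 1.84 to 2.74), so no fold is given. Its brighter probe differed by 0.98 ± 0.45 (adjusted p = 0.577).

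Genes that control entry into S phase differed less. Of 30 measured, 23 were higher with mitoses, with a median of 0.20, and 5 had an unadjusted p under 0.05, all of them higher. E2F1 was higher by 0.83 ± 0.31 and E2F3 by 0.59 ± 0.22 (adjusted p = 0.499 for each), both of them transcription factors of S phase genes. E2F3 was 6.58, 6.85 and 6.67 against 5.47 to 6.56, without overlap. CCNE1 (cyclin E1) was lower by 0.31 ± 0.32 in the mean, with 8.21, 7.16 and 7.10 against 6.81 to 8.37, and a dimmer probe gave 0.32 ± 0.41. CCND1 (cyclin D1) differed by 0.28 ± 0.33, and CDKN1A (p21, an inhibitor of cyclin-dependent kinases) by -0.04 ± 0.28.

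Patnaik grade and the cell makeup of the samples moved with the groups, and were therefore set beside the cell cycle values. Within Patnaik grade 2 the tumors with mitoses did not overlap those without in the M phase level: -0.28 was the lowest of the 3 with mitoses, and -0.64 (T55) the highest of the 4 without, which reached down to -1.34. The overlap of the list levels described above came from 1 of the 6 tumors of grade 1, T101. These 6 ran from -1.30 to 0.02 (T101). The same held for DNA replication and S phase genes, at -0.29 or above with mitoses and at -0.47 or below in the 4 of grade 2 without. In 29 of the 62 M phase genes, and in 15 of the 42 genes of DNA replication and S phase, all 3 tumors with mitoses lay above all 4 of grade 2 without. Over all probes this was so in 3.41%, with 3.6% lying below. The median difference of the M phase genes in this comparison of 3 and 4 tumors was 0.70. No probe was called in it.

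Keratinocyte genes split the tumors without mitoses by the same line as grade. Their level relative to the 51 arrays was between 3.09 and 4.68 in the 6 tumors of grade 1 and between -5.19 and -3.63 in the 4 of grade 2. Among the tumors with mitoses it was 2.96 in T84, -5.03 in T130 and -1.54 in T131. KRT14, a keratin of the basal epidermis, was 15.45, 9.83 and 13.31 in these 3, and between 11.09 and 16.38 in those without, so it was well above background in every tumor. Of 12 keratinocyte genes, 11 were lower in the mean with mitoses and none had an unadjusted p under 0.05. The epidermis contains dividing basal cells of its own. With the keratinocyte level as a covariate the median difference of the M phase genes was 0.71 and that of the DNA replication and S phase genes 0.48, and 32 M phase genes had an unadjusted p under 0.05, all of them higher. Grade and keratinocyte level cannot be told apart among the tumors without mitoses.

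**Figure D3:**
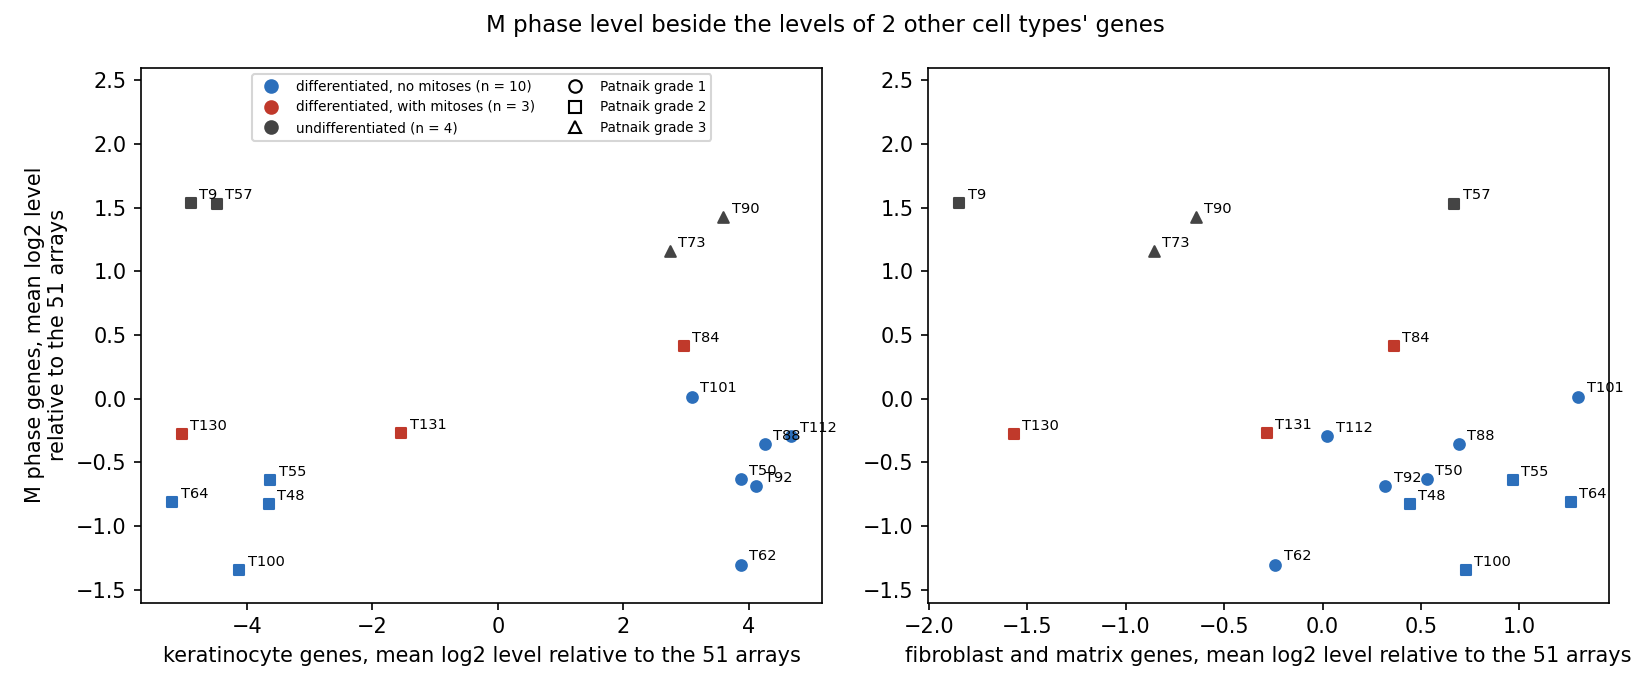
M phase level of each reference tumor (vertical axis) beside its keratinocyte level (left) and its fibroblast and matrix level (right), all as mean log2 level relative to the 51 arrays. Colors are the groups and symbols the Patnaik grades. At the left side of the first panel T130 and T131 (M phase levels of -0.28 and -0.27) lie above the 4 tumors of grade 2 without mitoses, and at its right side T84 (0.41) lies above the 6 tumors of grade 1.

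Arrays shared scan sessions and slides unevenly. T84 was scanned in the same session as T88, T92 and T100, and within it the median difference of the M phase genes (T84 alone against these 3) was 1.23 and that of the DNA replication and S phase genes 0.56. T130 and T131 were scanned in a session, and on a slide, that held no differentiated tumor without mitoses, so for these 2 tumors session and group cannot be told apart. On the 1 slide that held both groups, T84 exceeded T88 by a median of 0.77 over the M phase genes and 0.57 over those of DNA replication and S phase. Without T84 the M phase median was 0.46, and the number of M phase genes higher at an unadjusted p under 0.05 went from 20 to 5.

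Of the genes named for the lowest p at a fold of 2 or more, only CDC6 was a member of the cell cycle lists. TAGAP, a GTPase-activating protein known from activated T cells, had the lowest p of the genes with a fold of 2 or more. It was 9.56 in T84, 11.01 in T130 and 10.04 in T131, against 5.73, 6.68 and 8.14 as the lowest, median and highest level without mitoses. All 3 tumors with mitoses lay above all 10 without, by 3.40 ± 0.47 in the mean, or 10.6-fold (adjusted p = 0.137). Its second probe gave 3.18 ± 0.56. The 2 probes bind different places of the gene, at chr1:51429959-51430018 and chr1:51425890-51425949 on the minus strand, in the assembly of the array design, whose name is not given in the sources used here. The first 30 of the 60 bases of these probes, and of those of 3 further genes of this group, are printed in lower case to show which stretch each value was read from. The span given for PFKFB4 is longer than the probe itself. Whether it lies in coding sequence is not given in the sources used here.
TAGAP, second probe, chr1:51429959-51430018: acttcctcagaagtatcccactgaagctac
TAGAP, brightest probe, chr1:51425890-51425949: caatgtagtcagccggtctttgaggctgac
NXT2, chrX:85861800-85861859: aacaacactgtgtggaagattgcaagtgat
PFKFB4, chr20:43567976-43568394: ccgagaacggagagcaaccatctttaattt
CD69, chr27:39225556-39225615: gaggtcagcagtacagcgtgtgaaaataat

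NXT2, an export factor for messenger RNA, was 6.92, 6.26 and 6.94 in T84, T130 and T131 against 4.92 to 5.73 (median 5.32), higher by 1.37 ± 0.21 (adjusted p = 0.137) and without overlap. The gene lies on the X chromosome, and with sex as a covariate the difference was 1.49. PFKFB4, an enzyme that sets the level of a regulator of glycolysis, was 6.196, 7.47 and 7.49 against 3.24 to 5.22 (median 4.45). The difference was 2.71 ± 0.47 (adjusted p = 0.317), and 4 of the 10 tumors without mitoses were not well above background for it. With the normexp correction NXT2 differed by 0.56 and PFKFB4 by 0.94, so the size of both depends on how background is removed. POC1A, a centriole protein, was 10.05, 10.17 and 9.71 against 8.53 to 9.35, higher by 1.04 ± 0.19 (adjusted p = 0.324).

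CD69, an early marker of activated leukocytes, was 11.13, 12.14 and 10.75 against 8.23 to 10.20 (median 9.35). All 3 lay above the tumors without mitoses, by 2.04 ± 0.39 (adjusted p = 0.400). TRIM69 differed by 1.63 ± 0.37 and CENPI, a centromere protein, by 1.02 ± 0.22 (adjusted p = 0.405 for each), again without overlap. CENPI was dim, and with the normexp correction its difference was 0.19. SCN2B and NXPE4 completed the 10 genes. SCN2B entered by the dimmest of its 3 probes, which was not well above background in any tumor without mitoses, while its brighter probes differed by -0.14 ± 0.23 and -0.35 ± 0.29, so no fold is given for the gene. NXPE4 was not well above background in any tumor without mitoses and was so in 2 of the 3 with mitoses. In the main fit this makes it at least 1.63-fold higher in the mean. Over the alternative settings its log2 difference went down to 0.18. NXPE4 was at 1.94 in T84, inside the range of the tumors without mitoses, and at 5.21 in T130 and 4.13 in T131. It was called when T84 was left out.

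On the lower side, 6 of the 10 genes of lowest p showed no overlap between the groups. These genes were picked by p on the same values, which favors such separation, and over all probes 0.335% lay wholly below. HOXA6, a homeobox gene, was 7.87, 6.73 and 7.59 in T84, T130 and T131 against 8.02 to 9.03, a difference of -1.15 ± 0.24 (adjusted p = 0.405). SRPX differed by -1.44 ± 0.34, SPOCK1 (testican, a matrix proteoglycan) by -2.53 ± 0.60, NKG7 (a granule membrane protein of cytotoxic lymphocytes) by -1.44 ± 0.35, SERPINH1 (the collagen chaperone) by -1.24 ± 0.30 and SLC6A11, a GABA transporter, by -1.75 ± 0.44, each with an adjusted p of 0.405. In all 6 of these genes T130 was the lowest of the 3. SPOCK1 was 10.01, 6.51 and 9.43 against 10.24 to 11.95, and without T130 its difference was -1.46. MEOX1 (-1.55 ± 0.36), MFSD1 (-2.03 ± 0.51), BCAT2 (-1.39 ± 0.35) and a probe of COL1A1, a chain of type I collagen (-2.23 ± 0.56), overlapped with the tumors without mitoses through T84. Dimmer probes of MFSD1 and BCAT2, well above background in all 13 tumors, gave 0.32 ± 0.20 and -0.12 ± 0.11, so the probes of these 2 genes disagreed.

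**Figure D4:**
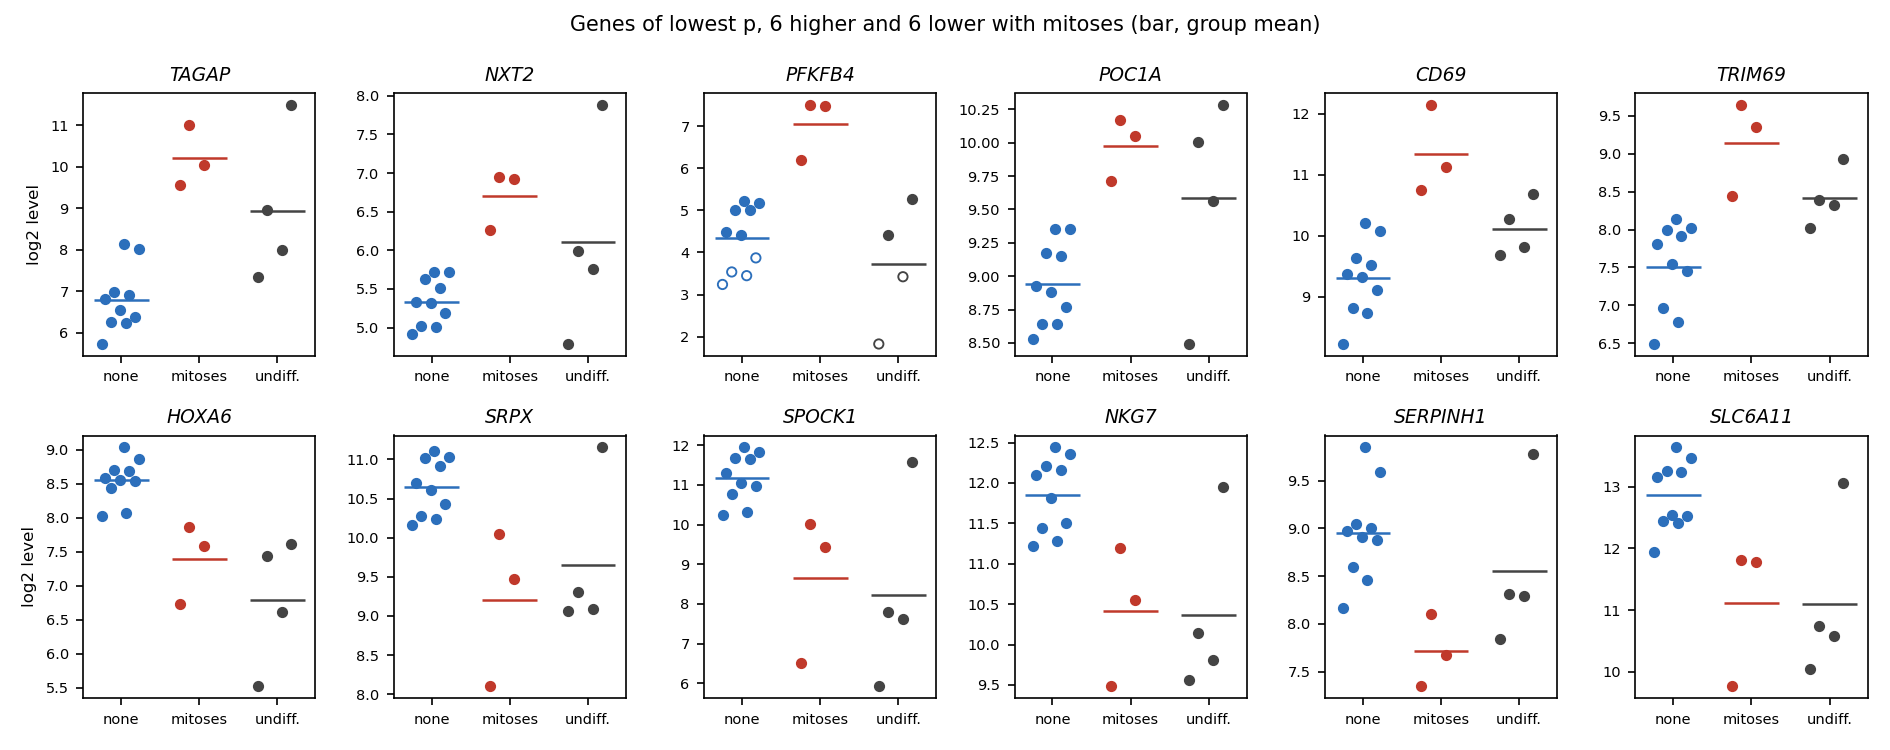
Log2 level of 12 of the genes with the lowest p values, 6 higher (top) and 6 lower (bottom) in differentiated tumors with mitoses than in those without, and beside them the 4 undifferentiated tumors. Points are tumors, bars are group means and open points are not well above background. In each panel the 3 tumors with mitoses lie outside the range of the 10 without, which the choice of genes by p favors. Among these panels the undifferentiated tumors spread most widely in SPOCK1 (5.93 to 11.58) and TAGAP (7.35 to 11.47).

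Genes of fibroblasts and the extracellular matrix were lower in nearly every case. Of the 30 fibroblast and matrix genes measured, 29 were lower and 1 higher with mitoses, with a median of -1.15, and 14 had an unadjusted p under 0.05, all of them lower, against 2.98% of all probes. None was called. MFAP4, a microfibril protein, was 10.17, 8.27 and 6.89 in T84, T130 and T131 against 9.70 to 12.50 (median 11.13), a difference of -2.67 ± 0.71 (adjusted p = 0.408). COL5A1, a chain of type V collagen, was 11.18, 7.92 and 9.98 against 10.64 to 12.77, a difference of -1.98 ± 0.57 (adjusted p = 0.415). T130 carried much of this. The level of the list was 0.36 in T84, -1.57 in T130 and -0.28 in T131, against -0.24 to 1.30 (median 0.61) without mitoses. T130 was below all 10 tumors without mitoses in 25 of the 30 genes, T131 in 6 and T84 in 1. Over all probes these tumors were so in 12.4%, 9.83% and 8.67%. Without T130 the median was -0.55 and 2 genes had an unadjusted p under 0.05 in place of 14. Within the scan session of T84 the median was -0.23. In whole tumor samples, fewer cells of a type and less RNA per cell cannot be told apart. With the level of this list as a covariate the M phase median was 1.0007.

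Mast cell genes differed little. Of 17 measured, 14 were higher and 3 lower with mitoses, with a median of 0.29, and 1 (SYK) had an unadjusted p under 0.05. KIT was 13.49, 14.02 and 13.22 against 12.50 to 13.91 (median 13.10), a difference of 0.47 ± 0.29 (adjusted p = 0.661). FCER1A differed by 0.17 ± 0.24, MS4A2 by 0.42 ± 0.34, CMA1 by -0.33 ± 0.36 and the canine tryptase, listed under TPSAB1, by -0.09 ± 0.31. CPA3 is not analysed here. The level of the list was -0.22 in T84, 0.59 in T130 and 0.37 in T131, and ran from -0.77 to 0.53 without mitoses. T84, with the highest M phase level of the 3, thus had the lowest level of this list, though KIT was lowest in T131.

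Among the lists of other leukocytes, T cell genes had a median of 0.72, with 15 of 18 higher. Their level was 0.51 in T84, 0.46 in T130 and -0.17 in T131, against -1.04 to 0.40 without mitoses, and 2 of them were higher and 1 (NKG7) lower at an unadjusted p under 0.05. With the normexp correction the median was 0.11. ICOS, a T cell costimulator, was above background in 3 of the 13 tumors only. Eosinophil genes had a median of 1.14 over 6 genes with no unadjusted p under 0.05, and a level of 2.42 in T84, 0.19 in T130 and -0.34 in T131. ALOX15 (1.63 ± 0.89) and IL5RA (1.30 ± 0.67) had the lowest p of them. B and plasma cell genes (8 measured, median 0.16) and macrophage and dendritic cell genes (19 measured, median 0.18) were closer to 0. TYROBP, a signaling adaptor of myeloid cells, was higher by 0.72 ± 0.24 (adjusted p = 0.464), and C1QB, a complement component of macrophages, lower at -1.40 ± 0.65. Neutrophil genes had a median of -0.02, and 2 of 11 had an unadjusted p under 0.05, both lower. CSF3R, the receptor of a neutrophil growth factor, was 4.43, 4.83 and 4.87 in T84, T130 and T131 against 4.86 to 6.77, a difference of -1.18 ± 0.35 (adjusted p = 0.439). S100A9, which neutrophils carry in abundance, was 8.93, 7.05 and 8.28 against 8.66 to 14.80, a difference of -2.77 ± 1.07 (adjusted p = 0.512).

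Interferon response genes were higher in 18 of 19, with a median of 0.85, and 3 had an unadjusted p under 0.05. Without T131 the median was 0.36, within the scan session of T84 it was 0.26, and with the normexp correction 0.35. T131 stood out with a level of 1.35, against 0.19 in T84 and 0.42 in T130. The tumors without mitoses spanned -1.03 to 0.87, so 2 of the 3 lay inside their range. CXCL10, a chemokine that draws T cells, was 6.65, 8.76 and 6.47 against 1.77 to 6.59 (median 3.82), higher by 3.37 ± 1.02 (adjusted p = 0.447), and 5 of the 10 tumors without mitoses were not well above background for it. With the normexp correction its difference was 1.22, and of its 2 other probes 1 gave 3.33 and 1 gave -0.21.

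Endothelial genes were lower in 13 of 15 (median -0.34), 3 of them at an unadjusted p under 0.05, beside 2.98% of all probes. Glycolysis and hypoxia genes were higher in 21 of 27 (median 0.23), among them DDIT4, a stress-induced inhibitor of growth signaling (1.98 ± 0.66), and GAPDH (0.40 ± 0.14). At an unadjusted p under 0.05, 5 of this list were higher and 1 lower, beside 5.68% and 2.98% of all probes. Apoptosis genes were higher in 16 of 20 (median 0.19) and ribosomal protein genes in 22 of 25 (median 0.10), with RPL18 at 0.39 ± 0.11 (adjusted p = 0.411). By the same unadjusted p, 2 apoptosis genes and 3 ribosomal protein genes were higher. Skeletal muscle and adipocyte genes had medians of 0.02 and 0.10. TTN, the giant protein of striated muscle, was not well above background in any tumor with mitoses and was so in 8 of the 10 without. The skeletal muscle list as a whole did not follow it, with 9 genes higher and 9 lower, and the source of the TTN signal was not tested. The 3 internal control genes of the study's PCR were all higher, with a median of 0.32, and HPRT1 differed by 0.32 ± 0.12.

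**Figure D5:**
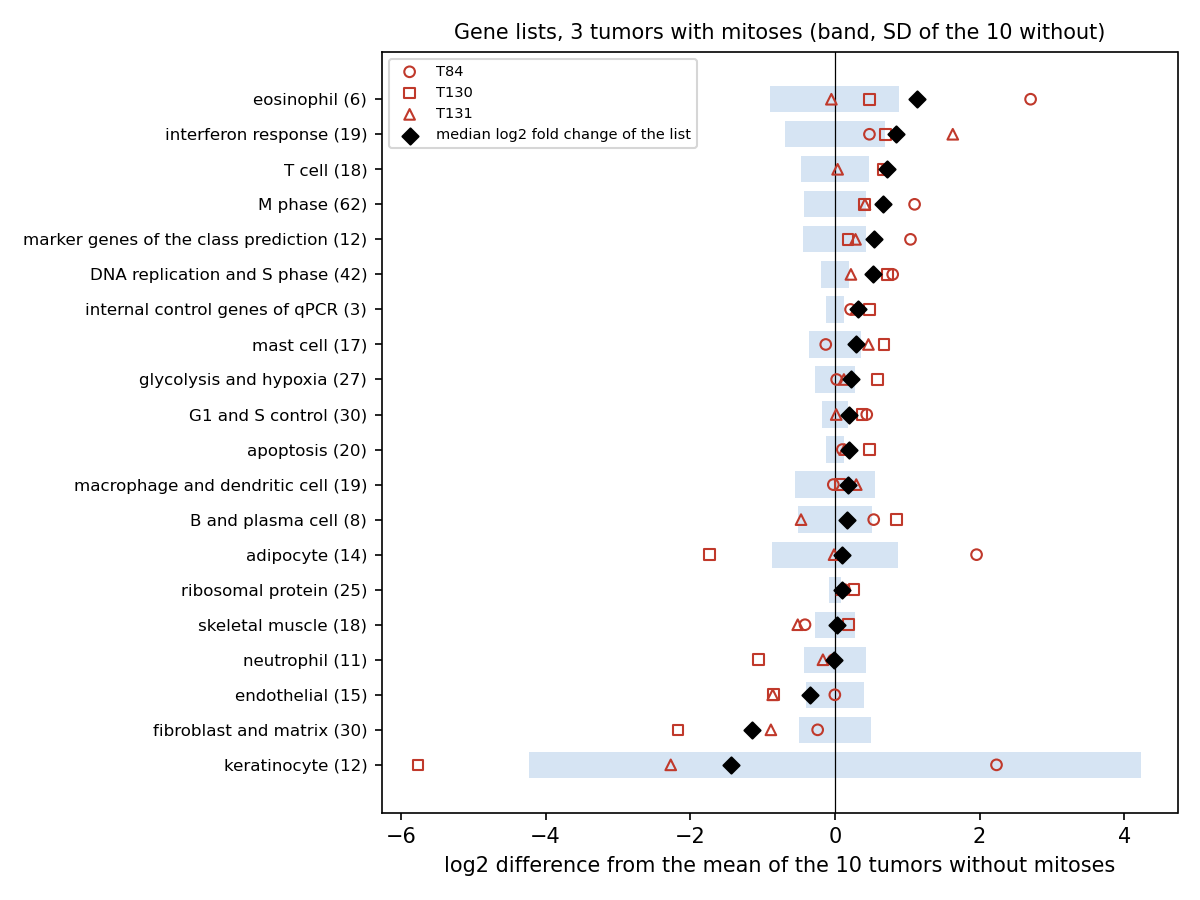
Difference of each gene list between the tumors with mitoses and the mean of the 10 without, on the log2 scale, with the number of genes measured in brackets. Open symbols are the list's mean level in T84, T130 and T131, diamonds are the median log2 fold change of its genes, and bands span 1 SD of the 10 tumors without mitoses on either side. All 3 tumors lie beyond the upper end of the band for DNA replication and S phase genes, for ribosomal protein genes and for the internal control genes, while for keratinocyte, adipocyte and eosinophil genes they spread over more than 2 log2 units.

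Against the undifferentiated tumors, the tumors with mitoses stood on the low side of the cell cycle. The study chose its reference classes partly by mitotic index, at most 5 in differentiated and above 5 in undifferentiated MCTs. A difference in cell cycle genes between the classes is therefore not independent of that choice. In a fit of the 3 groups together, 17 probes (0.039%) were called lower and 5 (0.0115%) higher in the 3 differentiated tumors with mitoses than in the 4 undifferentiated ones. The total of 22 was 13 without T130, 12 without T73 and 63 without T57. The split turned without T130 (4 lower and 9 higher) and without T131 (6 lower and 10 higher), and was 32 lower and 26 higher with the authors' normalized table. Of the 62 M phase genes, 61 were lower than in undifferentiated tumors, with a median of -1.45. In 45 of them all 4 undifferentiated tumors lay above all 3 with mitoses, as they did in 3.75% of all probes, and 2 were called (named after their values were seen, as are KPNA2 and CCNB3), SPC25 (a kinetochore protein, -2.83, adjusted p = 0.00856) and UBE2S, which extends ubiquitin chains for the anaphase-promoting complex (-1.59, adjusted p = 0.003, and -1.46 by another probe). UBE2S differed by only -0.06 ± 0.16 from the tumors without mitoses. KPNA2, a nuclear import receptor, was called by 2 probes (-1.54 and -1.46) and CCNB3, a B-type cyclin, by 1 (-2.64). In KPNA2 the 3 tumors with mitoses were between 11.39 and 11.47, inside the 10.99 to 12.01 of those without, whereas the undifferentiated ones were between 12.79 and 13.29. UBE2S and KPNA2 are 2 of the study's marker genes for telling differentiated from undifferentiated MCTs. The markers were chosen on these samples, so neither these calls nor the marker values are independent evidence. The markers had a median of -1.79 against undifferentiated tumors and of 0.54 against tumors without mitoses over 12 genes. Of these, NUF2, a kinetochore protein, was 9.04, 7.77 and 7.99 in T84, T130 and T131, against 5.42 to 8.13 without mitoses and 10.08 to 11.02 in undifferentiated tumors.

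In the same fit, 44 M phase genes and 20 genes of DNA replication and S phase were called higher in undifferentiated tumors than in differentiated ones without mitoses, against 0.757% of all probes. The medians of that difference were 2.13 and 1.18, beside 0.66 and 0.52 for the tumors with mitoses over the same 10. Both comparisons share those 10 tumors, and in both the mitotic index entered the choice of the groups. CDC20 gave 3.22 and 0.95 in this order, CCNA2 3.48 and 1.30, and AURKA 1.94 and 0.63. By contrast TAGAP, PFKFB4 and CD69, at 2.14, -0.61 and 0.81 in undifferentiated tumors, were further from the tumors without mitoses in those with mitoses (3.40, 2.71 and 2.04). These genes were picked for low p with against without mitoses, which favors a large difference there. CENPI, picked in the same way, went the other way, at 2.23 in undifferentiated tumors and 1.02 in those with mitoses, as did CDC6. The direct differences between tumors with mitoses and undifferentiated tumors, 1.26 for TAGAP, 3.32 for PFKFB4 and 1.22 for CD69, had adjusted p values of 0.548, 0.0501 and 0.249. Among the 34 tumors in no group here, the M phase level ran from -1.17 to 2.05 with a median of -0.01.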

How the data were processed

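Per the labels, total RNA of each tumor was amplified, labeled with Cy3 and hybridized to Agilent Canine V2 4x44k arrays. The deposited files hold scanner intensity values (processed, mean and background signal per spot), and the authors also deposited a table of intensity values that they had quantile-normalized. Here, log2 of the processed signal of 43803 non-control spots was quantile-normalized over the 51 arrays, outlier-flagged spots were dropped and spots of a probe averaged (43603 probes). Groups were compared with limma 3.58.1 in R 4.3.3 on the 13 differentiated arrays, with Benjamini-Hochberg adjustment and the study's thresholds (false discovery rate of 0.01, fold of 2). SAM, the study's test, was not run. The undifferentiated tumors entered a fit of 3 groups. The fit and the call rule were run on simulated data with known changes and independent noise. Only the recovered size of the changes was checked there. The number of arrays limits the precision.

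The undifferentiated reference whose array could be tied to its histology only by elimination was not used. Gene symbols came from RefSeq for 16318 spots and from the files for the other 27485, and some list genes (UBE2S, TYMS, BUB1 and CDK1 among them) were found through an older symbol or the file's description of the probe. A gene was represented by its brightest probe over the 51 arrays, except for the 10 genes of lowest p in each direction, which kept that probe. Genes were named by these rules: the 10 symbols of lowest p at a fold of at least 2 in each direction, none of them called, 20 proliferation genes, 6 mast cell genes, and the 2 of lowest p in each other list. Members, lists and rules were chosen with earlier results of these data known. A list is described by counts and by its median, and its level in a tumor is the mean deviation of its genes from their averages over the 51 arrays. Alternatives covered the normalization, the background correction (normexp, offset of 50), the filter on dim probes (well above background on at least 3 arrays), slide, scan session, sex, age, breed, grade, the thresholds and each left-out tumor. The keratinocyte and the fibroblast and matrix levels as covariates were added after the data were seen, as were the alternatives for the other lists. One gene that the rule names is not reported here.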

Additional observations from a re-analysis of the deposited data

Results flagged for a closer look

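In the 10 tumors without mitoses, 5 of 96 sets of values had a tumor far from the other 9, by its gap to the nearest in relation to the whole range. Chance gives about 1 in 20 such sets. The endothelial level of T48 was -0.74, the next lowest being -0.02. CDC6, by its dim probe, was 2.74 in T50, and NXPE4 was 2.16 in T112, both probes being below or near background in all 10. LIPE was 3.64 in T50, the lowest of the 10, and DDIT4 was 10.82 in T55, where the next highest tumor was at 8.89.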

How the results depend on the processing

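There were no pairs to analyze, since each tumor came from a different dog. The count of 0 called probes held in every alternative fit except these: 15 were called higher with the authors' normalized table, which gave values for 42843 probes, 76 higher with scan session as a fixed block, and 33 higher and 11 lower with slide as a fixed block, where T84 alone carries the difference. Leaving out a tumor gave 0 to 6 higher and 0 to 1 lower (5 higher without T84, 1 higher without T130, 6 higher and 1 lower without T131). The methods' t-test on linear values gave 446 higher and 156 lower at an unadjusted p under 0.05 and a fold of 2, and 0 after Benjamini-Hochberg adjustment. The M phase median was 0.32 with normexp, 1.23 within scan sessions and 0.46 to 0.81 with a tumor left out, and the median of DNA replication and S phase genes 0.28 with normexp and 0.40 to 0.65 with a tumor left out. Against undifferentiated tumors, 42 probes in place of 22 were called with normexp, 58 with the authors' table and 163 at an adjusted p under 0.05, and 12 to 63 with a tumor left out (13 without T130, 63 without T57, 12 without T73).

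Small differences turned sign. With scan session as a block, the mast cell median was -0.14, the keratinocyte median 1.79, CCNE1 0.20, CCND1 -0.37, FCER1A -0.14 and MS4A2 -0.26. With slide as a block AURKB was -0.32, MCM2 0.20, CCND1 -0.27 and CDKN1A 0.0047. With Patnaik grade as a covariate, or in grade 2 alone, the keratinocyte median was 2.84, CCNE1 0.14 and FCER1A -0.091. With Boxer as a covariate AURKB was -0.11, MCM2 0.018 and CDKN1A 0.0044, and with sex CDKN1A was 0.092. With log2(mitotic index + 1) as a number MCM2 was 0.016 and the tryptase 0.16, and with normexp CDKN1A was 0.0091. With the keratinocyte level as a covariate the keratinocyte median was 0.042. With the fibroblast and matrix level as a covariate AURKB was -0.075, CCND1 -0.24, FCER1A -0.034 and MS4A2 -0.12. With a tumor left out, CCND1 ran from -0.10 to 0.47, CDKN1A from -0.12 to 0.049, CMA1 from -0.89 to 0.012, MCM2 from -0.23 to 0.11, PCNA from -0.064 to 0.56, the tryptase from -0.38 to 0.35 and the keratinocyte median from -3.01 to 0.15. The cause was not tested.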
